A study of Sus scrofa with 10 samples.

Results

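Basement membranes are thin sheets of matrix on which endothelial cells rest and which also wrap muscle and some other cells. They are built from a laminin network and a type IV collagen network joined by linkers such as the nidogens, and in blood vessels and heart valves they separate the endothelium from the interstitial matrix. Collagens XV and VIII lie in or next to this zone, collagen XV as a proteoglycan that ties basement membranes to fibrillar collagen and collagen VIII as a short-chain collagen that forms networks under endothelium. The genes described here are COL4A2, COL15A1, COL8A1 and NID2, together with every laminin chain gene (symbols that start with LAMA, LAMB or LAMC and a digit) that the array annotation pairs with a probe set of exactly 1 symbol. That rule gave 7 genes of the 6765 measured, since LAMB1, LAMB2 and LAMC1 were the laminins found, and they have 14 of the 23999 probe sets tested. Each gene is read from its brightest probe set over all arrays, and no gene was left out for a low value.

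RNA came from aortic valve leaflets of female swine on standard chow and was read on Affymetrix porcine arrays, 1 colour, with values on the log2 scale. The 3 groups were juvenile wild type (3 arrays, 3 months old, Rapacz Wisconsin Miniature Swine, labelled wild type (RFH -/-)), juvenile Rapacz Familial Hypercholesterolemic or RFH (3 arrays, 3 months old) and adult RFH (4 arrays, 2 years old). RFH swine have inherited high blood cholesterol, and the labels give their breed but no alleles. The breed label differs between wild type (WT) and RFH, so breed and RFH genotype cannot be told apart, and in adult against juvenile RFH leaflets age and duration of the disease cannot be told apart. The labels do not say that each array is a separate animal, so p-values measure the spread between these samples, which may be technical. The whole leaflet was homogenised, and in such bulk RNA fewer cells of a type and less RNA per cell cannot be told apart. Markers of valve interstitial cells, the fibroblast-like cells of the leaflet, were also read. Of these, VIM, DCN and LUM had group means from 13.67 to 14.45 on a scale whose highest value was 14.96. The whole list of 9 such markers had lower means, 12.13 (WT), 12.04 (RFH juveniles) and 11.85 (RFH adults). No other tissue was measured, so these levels do not establish leaflet identity.

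Between juvenile and adult RFH leaflets 5 of the 7 genes fell and none rose, namely NID2, COL4A2, COL15A1, LAMB1 and LAMC1, with a median change over all 7 of -0.69 on the log2 scale against 0.02 over all genes. Called, rose and fell stand for an adjusted p under 0.05 in limma (Benjamini-Hochberg over all probe sets), which 19.3% of all genes passed and 7.85% passed downward. The groups did not overlap in the same 5 genes, where 13.3% of all genes were lower in every adult than in every juvenile RFH array. The genes were chosen with earlier results of these data known, so these counts are a description and not a test against all genes. NID2 and COL4A2 fell about 3-fold, the other called genes by 1.60-fold to 1.83-fold, and COL8A1 had no detected change in this comparison. Of the 14 probe sets 6 fell and none rose, where 8.74% of all probe sets fell and 8.03% rose, and 11.4% of all genes rose by their brightest probe set. LAMC1 counts here by its brightest probe set alone: with the mean of its 4 probe sets its change was -0.05 and the call ended (adjusted p = 0.817). The count was 3 of 7 when juvenile RFH replicate 1, 2 or 3 was left out, each time through the loss of COL15A1 and LAMB1, and also 3 when only the RFH arrays entered the fit.

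**Figure D1:**
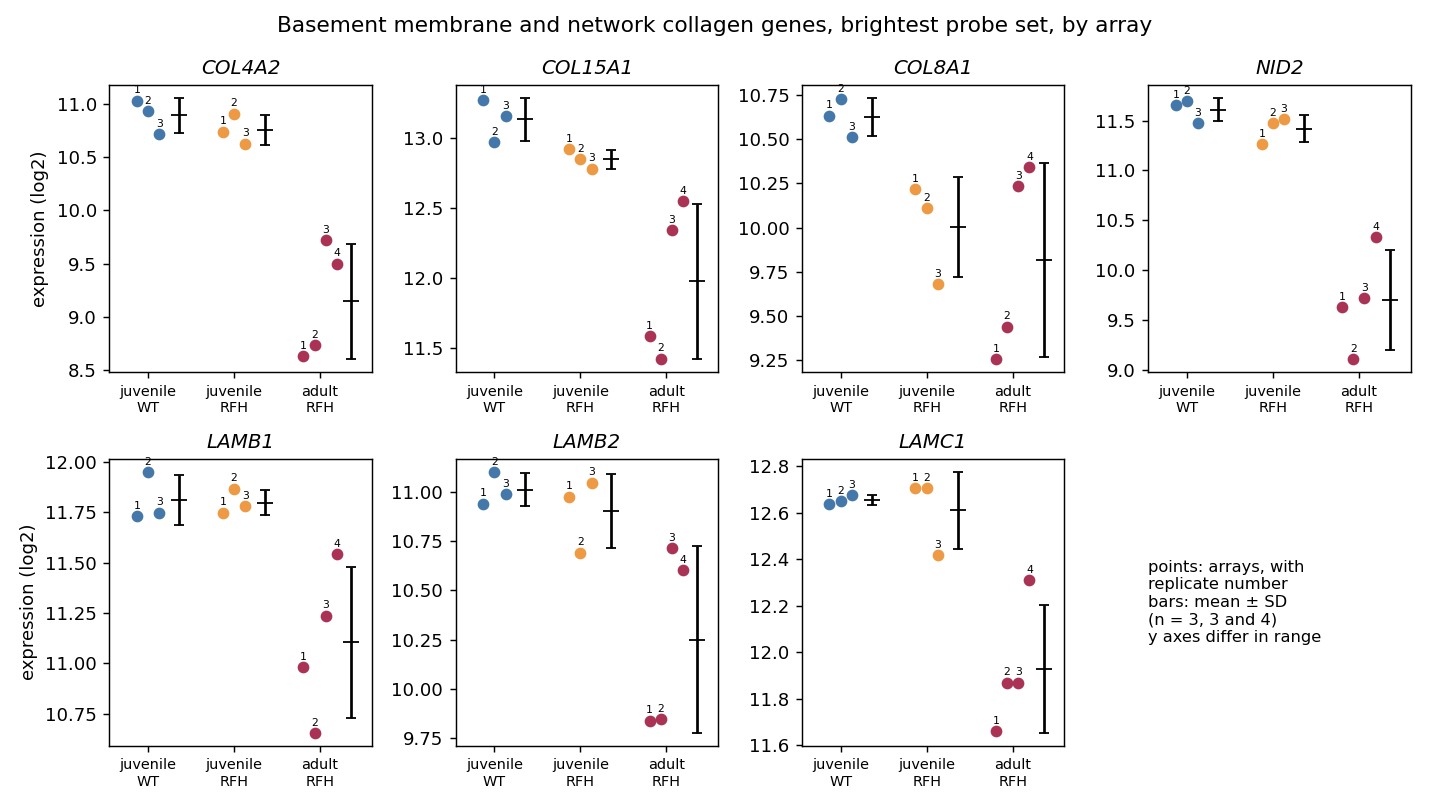
Expression (log2, y axis, range differs by panel) of the brightest probe set of each of the 7 genes in juvenile WT (n = 3), juvenile RFH (n = 3) and adult RFH (n = 4) arrays; points are arrays with their replicate numbers and bars are mean ± SD. NID2 and COL4A2 show the widest gap between juveniles and adults, COL8A1 is lower in all 3 juvenile RFH arrays than in WT, and in each panel adult arrays 1 and 2 lie below adult arrays 3 and 4.

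COL4A2 encodes a chain that joins with the COL4A1 chain to form the type IV collagen found in nearly all basement membranes. Its log2 level was 11.03, 10.94 and 10.72 in juvenile WT, 10.74, 10.91 and 10.63 in juvenile RFH and 8.63, 8.73, 9.72 and 9.50 in adult RFH arrays. The juvenile groups overlapped, and the highest adult array lay 0.91 below the lowest juvenile RFH array. COL4A2 fell by 1.61 ± 0.24 (SE) between juvenile and adult RFH leaflets, which is 3.06-fold (limma, adjusted p = 0.00201; 95% interval -2.15 to -1.08). The change ranged from -1.80 to -1.44 over the 10 fits that each left out 1 array, and all 10 called it. COL4A2 was the only collagen IV chain gene with a probe set of 1 symbol, and COL4A1, COL4A3, COL4A4, COL4A5 and COL4A6 were not analysed here.

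NID2 encodes nidogen-2, a linker between the laminin and collagen IV networks. Its level was 11.66, 11.70 and 11.47 in juvenile WT, 11.26, 11.48 and 11.51 in juvenile RFH and 9.63, 9.11, 9.72 and 10.33 in adult RFH arrays. All adult arrays were low, the highest by 0.93 below the lowest juvenile RFH array, while the juvenile groups overlapped. NID2 fell by 1.72 ± 0.22 (SE), or 3.30-fold (limma, adjusted p = 0.000887; 95% interval -2.22 to -1.23), and was called in each fit that left out 1 array. NID1, the other nidogen gene, was not analysed here.

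COL15A1 encodes the core protein of collagen XV. Its level was 13.27, 12.97 and 13.16 in juvenile WT, 12.92, 12.85 and 12.78 in juvenile RFH and 11.59, 11.43, 12.34 and 12.55 in adult RFH arrays. The 3 groups were stepped without overlap, but the step from WT to juvenile RFH was narrow, with 0.05 between the nearest arrays. COL15A1 fell by 0.87 ± 0.24 (SE) from juvenile to adult RFH, or 1.83-fold (limma, adjusted p = 0.0328; 95% interval -1.41 to -0.34). The call depended on single arrays. It was lost without juvenile RFH replicate 1, 2 or 3 (adjusted p = 0.104, 0.0781 and 0.0827), without adult RFH replicate 1 or 2 (adjusted p = 0.0726 and 0.0593) and without juvenile WT replicate 3 (adjusted p = 0.0519), and its adjusted p over all alternatives ran from 0.00793 to 0.104.

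Laminins are cross-shaped trimers of an alpha, a beta and a gamma chain, and they start the assembly of basement membranes. LAMC1 encodes the gamma chain shared by most laminins, and LAMB1 and LAMB2 encode alternative beta chains. No alpha chain gene had a probe set of 1 symbol. LAMB1 was at 11.73, 11.95 and 11.75 in juvenile WT, 11.75, 11.87 and 11.78 in juvenile RFH and 10.98, 10.66, 11.24 and 11.54 in adult RFH arrays. The juvenile values coincided and every adult array was lower. LAMB1 fell by 0.69 ± 0.17 (SE), or 1.62-fold (limma, adjusted p = 0.0219). Leaving out juvenile RFH replicate 1, 2 or 3 ended the call (adjusted p = 0.0614, 0.0664 and 0.0663). Its second probe set, dimmer by its mean over all arrays, fell by 0.76 ± 0.22 (SE, adjusted p = 0.0388), with 1 adult array at 7.78 above the lowest juvenile RFH array at 7.61.

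LAMB2, the other beta chain, was not called. Its level was 10.94, 11.10 and 10.99 in juvenile WT, 10.98, 10.69 and 11.05 in juvenile RFH and 9.84, 9.85, 10.71 and 10.60 in adult RFH arrays. Adult replicates 1 and 2 were low, while adult replicate 3 lay 0.02 above juvenile RFH replicate 2, so the groups overlapped. The change of -0.65 ± 0.22 (SE; 95% interval -1.13 to -0.18) did not pass (limma, adjusted p = 0.0629). It passed when adult RFH replicate 3 or 4 was left out (adjusted p = 0.0182 and 0.0355), with quantile normalization (0.0487), without dim probe sets (0.0481) and with the replicate block (0.0341), and over all alternatives its adjusted p ran from 0.0182 to 0.185.

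LAMC1 was at 12.64, 12.65 and 12.68 in juvenile WT, 12.70, 12.71 and 12.42 in juvenile RFH and 11.66, 11.87, 11.87 and 12.31 in adult RFH arrays by its brightest probe set. By that probe set every adult array was lower than every juvenile array, and LAMC1 fell by 0.68 ± 0.14 (SE), or 1.60-fold (limma, adjusted p = 0.01). The other 3 probe sets annotated to LAMC1 did not show this. Their changes were 0.25 ± 0.11 (SE, adjusted p = 0.15), -0.04 ± 0.19 (adjusted p = 0.912) and 0.26 ± 0.13 (adjusted p = 0.185). The brightest probe set less each of these, taken within arrays, was lower in adult than in juvenile RFH arrays by 0.94, 0.64 and 0.94, with an exact two-sided permutation p of 0.0286 each, the smallest that 4 against 3 arrays allow (0.0667 when adjusted over the 7 such differences of all members). The changes of the 4 LAMC1 probe sets thus did not share 1 sign, while the differences between them did not pass after adjustment.

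**Figure D2:**
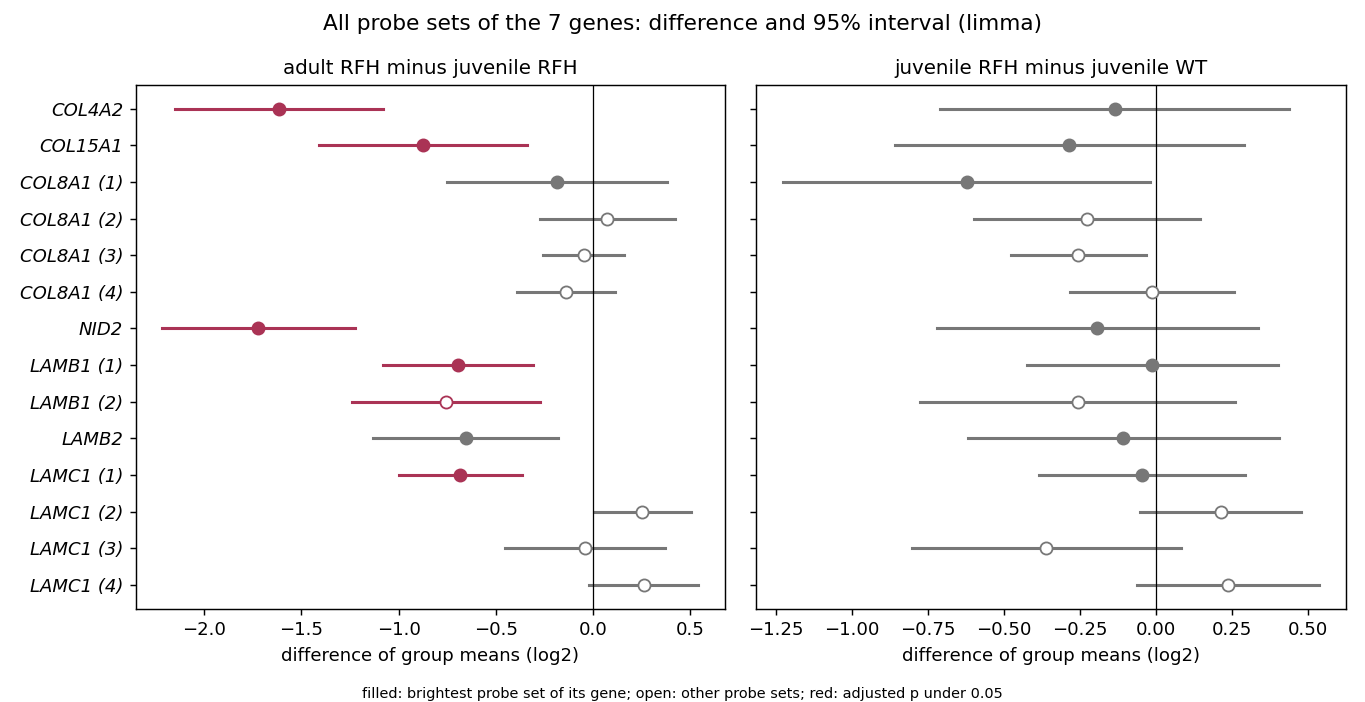
Difference of group means (log2, x axis) with its 95% interval for all 14 probe sets of the 7 genes, adult minus juvenile RFH (left) and juvenile RFH minus juvenile WT (right); filled points are the brightest probe set of a gene, open points its other probe sets in order of brightness, and red marks an adjusted p under 0.05. On the left 6 probe sets are red, all below 0, and the open points of LAMC1 part from its filled point; on the right no probe set is red.

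COL8A1 encodes a chain of collagen VIII, which endothelial and smooth muscle cells secrete. Its level was 10.63, 10.73 and 10.51 in juvenile WT, 10.22, 10.11 and 9.68 in juvenile RFH and 9.26, 9.44, 10.24 and 10.34 in adult RFH arrays. Every juvenile RFH array was below every WT array, and the adult arrays lay on both sides of the juvenile RFH arrays, with replicates 1 and 2 lower and replicates 3 and 4 higher. The change from juvenile to adult RFH was -0.18 ± 0.26 (SE, limma, adjusted p = 0.675), with a 95% interval from -0.75 to 0.38 that leaves room for a fall of the size seen in the laminins but not for that of COL4A2 or NID2. The other 3 probe sets of COL8A1 had changes of 0.08, -0.05 and -0.14, none called (adjusted p = 0.792, 0.785 and 0.451).

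Between juvenile RFH and juvenile WT leaflets limma called none of the 7 genes, while 1 of 7, COL8A1, had an unadjusted p under 0.05. Few calls were made in this comparison over all genes, 0.133%. All 7 changes were negative, from -0.62 to -0.01 with a median of -0.13, where the median over all genes was 0.07 and 34.4% of genes were negative. For LAMB1, LAMB2 and LAMC1, with changes of -0.01, -0.11 and -0.04, the sign turned in some alternatives. COL8A1 had the largest change, -0.62 ± 0.27 (SE; unadjusted p = 0.0448, adjusted p = 0.376), a level 1.54-fold lower in juvenile RFH, with 0.29 between the nearest arrays of the groups. The spread in this fit includes that of the adult arrays, whose median SD was 0.188 against 0.125 in juvenile RFH and 0.0949 in WT. With only the 2 juvenile groups in the fit the SE of COL8A1 was 0.14 (limma, adjusted p = 0.0587), still not a call. The lack of calls here does not show equal levels. A second COL8A1 probe set also did not overlap, at -0.25 ± 0.10 (SE, adjusted p = 0.332), and the remaining probe sets were at -0.23 and -0.01. The dimmer probe sets of LAMC1 were at 0.21, -0.36 and 0.24 (adjusted p = 0.508, 0.499 and 0.514), so here too they did not share 1 sign.

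COL8A1 and COL15A1 were the 2 of 7 genes whose juvenile RFH arrays all lay below the WT arrays, and 9.53% of all genes showed this. COL15A1 had a change of -0.28 ± 0.26 (SE, adjusted p = 0.714; 95% interval -0.86 to 0.29). COL4A2 and NID2 had changes of -0.13 and -0.19 (adjusted p = 0.886 and 0.804), with 95% intervals of -0.71 to 0.44 and -0.72 to 0.34. These intervals exclude a difference between RFH and WT juveniles as large as that between adult and juvenile RFH leaflets in both genes. The interval of LAMB1 was -0.42 to 0.40 and that of LAMC1 -0.38 to 0.29.

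Set against the WT arrays, all 7 genes were lower in every adult RFH array than in every juvenile WT array, COL8A1 and LAMB2 included, as were 15.1% of all genes. For LAMC1 this is its brightest probe set, while its second by brightness and its dimmest were higher in every adult than in every WT array, at 8.63 to 9.07 against 8.35 to 8.41 and at 7.39 to 7.99 against 7.14 to 7.22. Of COL8A1, the second probe set by brightness and the dimmest overlapped between adult and WT arrays. Their adult values reached 6.68 and 4.78, above the lowest WT values of 6.41 and 4.66. No test was made of the order of adult and WT arrays, since age and breed both differ. By the brightest probe sets the group means ran from WT down to juvenile RFH and down to adult RFH in 7 of 7 genes. This order was found in 16.6% of all genes. The second LAMC1 probe set by brightness and its dimmest ran the other way, from WT up to adult RFH. The second COL8A1 probe set had its lowest mean in juvenile RFH. The steps from WT to juvenile RFH and on to adult RFH use the same juvenile RFH arrays, so they are given as a description.

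Differences between the 7 genes were taken within arrays to compare the sizes of their changes. The level of NID2 less that of LAMB1, LAMB2 or LAMC1 was lower in adult than in juvenile RFH by 1.03, 1.07 and 1.04, and COL4A2 less LAMB2 was lower by 0.96. COL4A2 less COL8A1 was lower by 1.43, COL4A2 less COL15A1 by 0.74 and COL15A1 less COL8A1 by 0.69. COL15A1 less NID2 was higher by 0.85 and COL8A1 less NID2 by 1.54. Each of these 9 pairs had an exact two-sided permutation p of 0.0286, the smallest possible, and an adjusted p of 0.0667 over the 21 pairs, so none passed after adjustment. COL4A2 less LAMB1 and less LAMC1 was lower by 0.92 and 0.93, each with an exact permutation p of 0.0571. No unequal change was detected among the 3 laminin chains, whose within-array differences changed by -0.04, -0.01 and 0.03 (exact permutation p = 0.914, 0.971 and 0.943), and COL4A2 less NID2 changed by 0.11 (exact permutation p = 0.714), though a p of this size does not show equal changes. These pairs were compared after the values had been seen.

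All 7 genes varied more among the adult arrays than most genes did. The median SD over the 4 adult arrays was 0.50 in the 7 genes and 0.20 over all genes, and the range over adults was 1.08 for COL4A2, 1.13 for COL15A1 and 1.22 for NID2, against 0.28, 0.14 and 0.25 over the juvenile RFH arrays. By the brightest probe sets, adult replicates 1 and 2 were both below adult replicates 3 and 4 in 7 of 7 genes. The margin rounds to 0.00 in LAMC1, and this order was found in 18.8% of all genes. It failed in some dimmer probe sets, where adult replicate 3 lay below replicate 1 or 2. These were that of LAMB1 (7.10 against 7.31), the dimmest of LAMC1 (7.65 against 7.71) and some of COL8A1 (5.94 against 6.01 and 4.40 against 4.52). The order held in the other dimmer probe sets of LAMC1 and COL8A1. Leaving out either of adult replicates 1 and 2 kept COL4A2, NID2, LAMB1 and LAMC1 called. The reverse order was found in 30.8% of all genes and in 0 of the 7.

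Markers of other cells moved with this order. The macrophage marker list (12 genes) averaged 10.77 and 10.89 in adult replicates 1 and 2 and 10.27 and 10.32 in replicates 3 and 4. Juvenile RFH arrays were at 9.84 to 9.89. The exact permutation p for adult against juvenile RFH was 0.0286, the smallest possible and not adjusted over the lists. Of the 12 macrophage genes 6 rose and none fell, where 11.4% of all genes rose and 7.85% fell. The B cell list (3 genes) was at 8.05, 8.44, 7.16 and 6.83 in adult replicates 1 to 4 and at 6.66 to 7.03 in juvenile RFH. Adipocyte markers (10 genes) stood at 6.79, 6.73, 6.25 and 6.11 against 5.69 to 5.81, and T cell markers (8 genes) at 5.88, 6.87, 5.50 and 5.45 against 5.42 to 5.51. For adult against juvenile RFH the exact permutation p was 0.2 for the B cell, 0.229 for the T cell and 0.0571 for the adipocyte list. Of the adipocyte genes 3 of 10 rose, and no B cell or T cell gene was called. All 4 lists were highest in adult replicates 1 and 2, the arrays where the 7 genes were lowest by their brightest probe sets. The part of these cells in the changes of the 7 genes was not tested.

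Endothelial markers had positive changes in 12 of 15 genes between juvenile and adult RFH leaflets. The list averaged 9.35, 9.61, 8.73 and 9.28 in adult, 8.50, 8.78 and 8.55 in juvenile RFH and 8.18, 8.37 and 8.47 in juvenile WT arrays (exact permutation p = 0.0857 for adult against juvenile RFH). Of its genes 5 rose, VWF, TIE1, EGFL7, ECSCR and NOS3, 1 fell, ERG, and 9 did not pass. Over all genes 11.4% rose and 7.85% fell. VWF, the clotting factor carrier that endothelial cells store, rose by 1.48 ± 0.27 (SE, adjusted p = 0.00513). PECAM1 and CDH5, adhesion molecules that define endothelium, were at 0.69 ± 0.23 (adjusted p = 0.069) and 0.25 ± 0.35 (adjusted p = 0.675), and KDR was dim, between 3.68 and 4.28 on every array. Among markers of smooth muscle cells and pericytes, which also make basement membrane, 3 of 9 fell and none rose: ACTA2 by 1.00 ± 0.21 (SE, adjusted p = 0.0103), RGS5 by 1.27 ± 0.34 (adjusted p = 0.0282) and PDGFRB by 0.42 ± 0.13 (adjusted p = 0.0474). That list averaged 8.78, 8.42, 9.13 and 8.97 in adult and 9.37, 9.43 and 9.14 in juvenile RFH arrays, and the list of 9 valve interstitial markers 11.77, 11.61, 11.93 and 12.09 against 12.04 ± 0.04 (SD, n = 3; exact permutation p = 0.0571 and 0.257). Both of these lists were also lower in adult replicates 1 and 2 than in 3 and 4, and their part in the result was not tested.

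**Figure D3:**
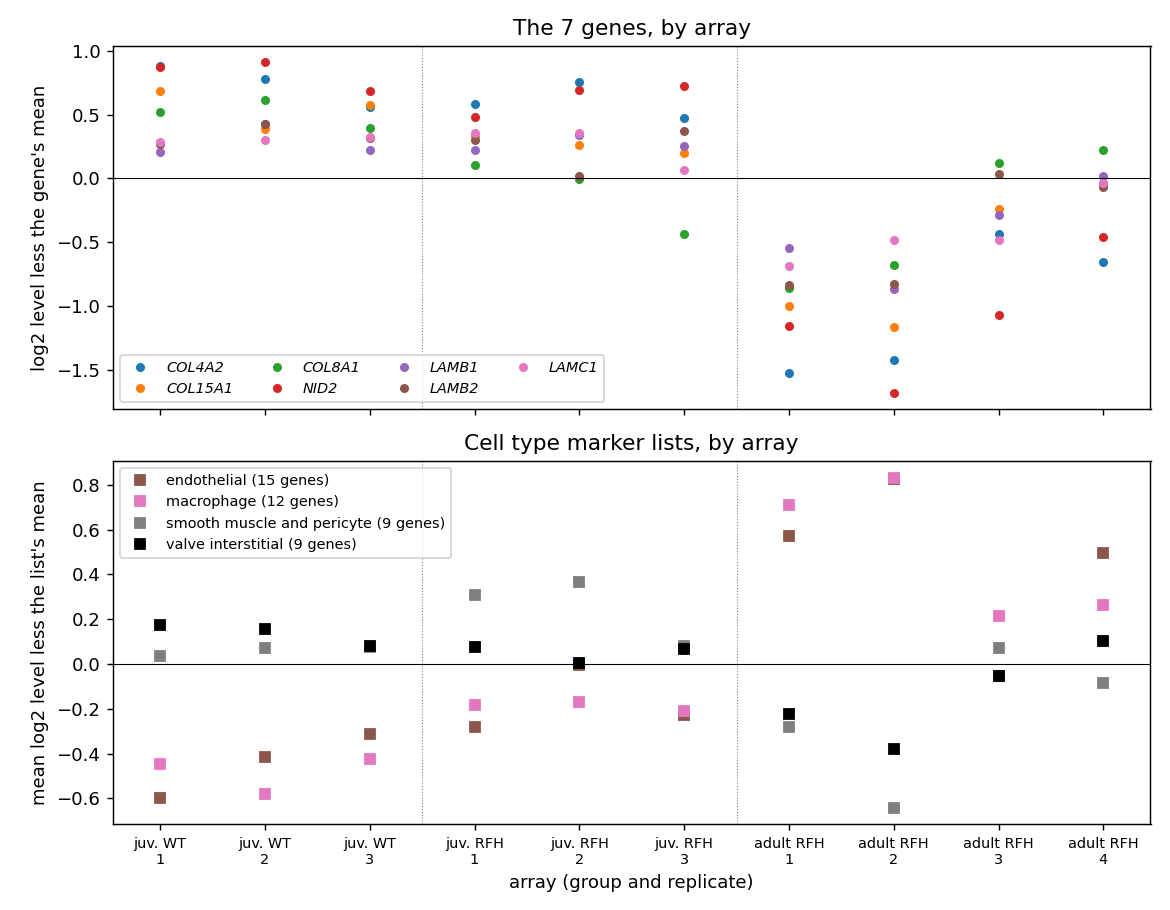
Upper panel: log2 level of each of the 7 genes less its own mean over the 10 arrays, by array; lower panel: mean log2 level of 4 cell type marker lists less the list's mean. Dotted lines part juvenile WT, juvenile RFH and adult RFH arrays. By their brightest probe sets the 7 genes are lowest in adult arrays 1 and 2, where macrophage and endothelial markers are highest.

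Other array measures were as follows. Poly-A control transcripts, added during labelling, averaged 7.12 in adult and 6.32 in juvenile RFH arrays, a difference of 0.80 (exact permutation p = 0.0286), and their part was not tested. Control genes read by both 3' and 5' probe sets, whose gap grows with RNA breakdown, gave a mean gap that changed by -0.02 (exact permutation p = 0.943). The gap was 1.75, 2.25, 2.84 and 2.12 in adult replicates 1 to 4 and 2.11 to 2.38 in juvenile RFH arrays, so adult replicate 1 lay below and adult replicate 3 above the juvenile range. Cardiac muscle markers (13 genes) stood at 8.69 in juvenile RFH replicate 2 against 5.07 to 5.65 in the other arrays. Without that array COL4A2, NID2 and LAMC1 were still called, while COL15A1 and LAMB1 were not (limma, adjusted p = 0.0781 and 0.0664). Erythrocyte markers (5 genes) were lower in adult than in juvenile RFH arrays by 1.13 (exact permutation p = 0.0286).

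Other genes of the basement membrane were read from lists of related collagens, linkers, receptors, processing enzymes and proteases. Among 45 measured genes of these 6 lists that are not among the 7, the median change was -0.08, 9 fell, 6 rose and 30 were not called. Over all genes 7.85% fell and 11.4% rose, so the part that rose was near that of all genes. Related collagens with no call were COL7A1, the anchoring fibril collagen, at -0.59 ± 0.18 (SE, adjusted p = 0.0526), and COL10A1 and COL17A1 at 0.01 and -0.02. COL10A1, the other short-chain network collagen measured, had group means from 5.11 to 5.19, below the array medians near 7. COL8A2 and COL18A1 were not analysed here.

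Of 10 measured linker and associated proteins 3 fell and none rose (7.85% and 11.4% over all genes), with a median of -0.21. Besides NID2 these were SPARCL1, a matricellular relative of SPARC, by 1.00 ± 0.17 (SE, adjusted p = 0.00333), and EGFL6, a secreted basement membrane protein, by 0.46 ± 0.14 (adjusted p = 0.0444). The EGFL6 call was kept in 1 of the 10 fits that left out 1 array, the one without adult RFH replicate 3. SPARC, which binds collagen IV, was at -0.35 ± 0.12 (adjusted p = 0.0706), with juvenile RFH values of 14.87, 14.84 and 14.88 near the top of the scale and lower adult values of 14.46, 14.20, 14.69 and 14.70. TINAGL1, a basement membrane glycoprotein, was at 1.16 ± 0.42 (adjusted p = 0.0847). FBLN1, EFEMP2, VWA1, TINAG and NTN1 had changes between -0.23 and 0.09, none called.

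Of 11 receptor genes 3 fell and 1 rose, where 7.85% of all genes fell and 11.4% rose. ITGAV, an integrin chain that binds matrix ligands, fell by 0.97 ± 0.12 (SE, adjusted p = 0.000786), SGCD, a sarcoglycan of the laminin-binding dystrophin complex, by 0.73 ± 0.14 (adjusted p = 0.00769) and ITGB1, the beta chain of the main laminin and collagen receptors, by 0.31 ± 0.08 (adjusted p = 0.0278). The ITGB1 call was lost without juvenile RFH replicate 1, 2 or 3. SDC4, a heparan sulfate proteoglycan of the cell surface, rose by 0.54 ± 0.12 (adjusted p = 0.0151), but not when juvenile RFH replicate 1 was left out (adjusted p = 0.0693).

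Of 8 genes for collagen folding and modification 3 fell and none rose (7.85% and 11.4% over all genes). These were the collagen chaperone SERPINH1 by 0.96 ± 0.12 (SE, adjusted p = 0.000904), the collagen galactosyltransferase COLGALT1 by 0.55 ± 0.09 (adjusted p = 0.0033) and the prolyl hydroxylase subunit P4HA2 by 0.68 ± 0.12 (adjusted p = 0.00541). All 3 were called in each of the 10 fits that left out 1 array. PLOD1, PLOD3, CRTAP, TMEM38B and SEC23A were not called, with changes from -0.25 to 0.22.

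Of 14 genes of matrix breakdown and its control 5 rose and 1 fell (11.4% and 7.85% over all genes), with a median of 0.13. TIMP1, an inhibitor of metalloproteases, rose by 1.97 ± 0.19 (SE, adjusted p = 0.000131), the plasminogen activators PLAU and PLAT by 1.50 ± 0.21 and 1.10 ± 0.21 (adjusted p = 0.00125 and 0.00606) and the protease ADAMTS1 by 1.62 ± 0.26 (adjusted p = 0.0029). HPSE, which cleaves heparan sulfate chains such as those of basement membrane proteoglycans, was the fifth, at 2.73 ± 0.52 (adjusted p = 0.00656), named after its value was seen. Its dimmer probe sets were at 0.92, 0.82 and -0.04 (adjusted p = 0.0142, 0.0529 and 0.746). MMP2, a gelatinase that cuts collagen IV, fell by 0.85 ± 0.26 (adjusted p = 0.0475), a call kept when adult RFH replicate 3 or 4 was left out and lost in the other 8 fits that left out 1 array. MMP9, the other gelatinase, was at -0.08 (adjusted p = 0.629).

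**Figure D4:**
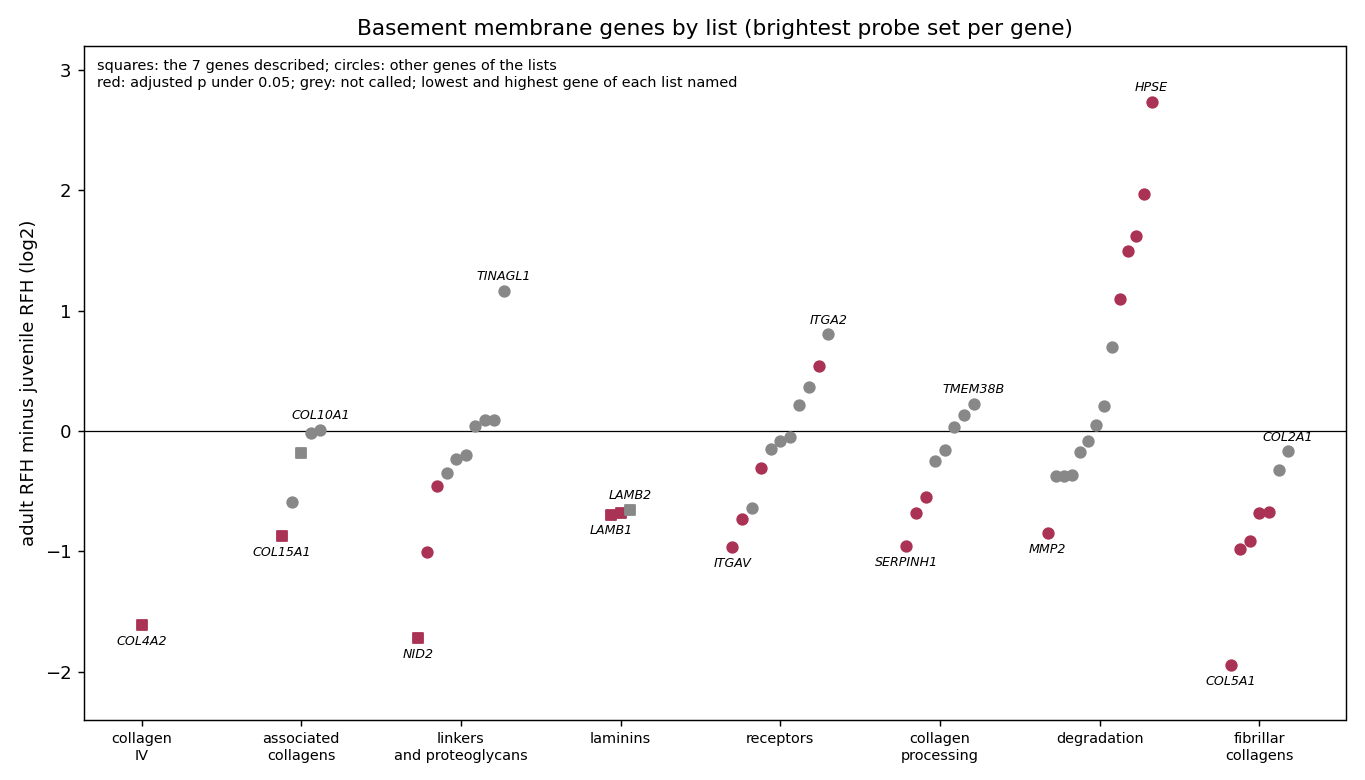
Change from juvenile to adult RFH leaflets (log2, y axis) of every measured gene in 8 groups of basement membrane and collagen genes, brightest probe set per gene; squares are the 7 genes described, circles other genes, red an adjusted p under 0.05. COL4A2 and NID2 are among the lowest points, close to the fibrillar collagen COL5A1, and the points high above 0 belong mainly to the degradation group.

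Fibrillar collagen genes, which build the interstitial matrix of the leaflet, gave a count close to that of the 7 genes described. Of 7 measured 5 fell and none rose (7.85% and 11.4% over all genes), with a median of -0.68. COL5A1 fell by 1.94 ± 0.22 (SE, adjusted p = 0.000411), COL3A1 by 0.68 ± 0.11 (adjusted p = 0.00236), COL5A2 by 0.91 ± 0.17 (adjusted p = 0.00614) and COL11A1 by 0.67 ± 0.16 (adjusted p = 0.0161). COL5A3, named after its value was seen, fell by 0.98 ± 0.26 (adjusted p = 0.0251). Without juvenile RFH replicate 1 the count was 3, through the loss of COL11A1 and COL5A3, and COL5A3 was also lost without juvenile RFH replicate 3 and without adult RFH replicate 2. Between juvenile RFH and WT leaflets limma called none of the 7 fibrillar collagens and none of the 45 other basement membrane genes, of which 2 and 3 had an unadjusted p under 0.05, with medians of -0.08 and 0.03.

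Likeness of pattern was measured as the root mean square difference between 2 genes over the 10 arrays, each less its own mean, in log2 units. For COL4A2 the 3 closest genes were COL6A3 at 0.16, COL5A1 at 0.19 and C1QTNF3 at 0.24, against a median of 0.93 over all genes. NID2 was closest to COL5A1 at 0.21, PTN at 0.24 and C1QTNF3 at 0.27, with a median of 0.98, and COL4A2 came next at the same rounded distance of 0.27. COL6A3 encodes a chain of the microfibrillar collagen VI, and PTN a heparin-binding growth factor.

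COL15A1 was closest to PAMR1 at 0.14, to a gene named LOC100623720 at 0.15 and to FBN1, the main microfibril protein, at 0.15, with a median of 0.65. For COL8A1 the closest were LHFP at 0.20, TTC3 at 0.21 and RUNX1T1 at 0.22, with a median of 0.54. No collagen was among the 5 closest genes of COL8A1, and the same held for COL15A1, LAMB1 and LAMB2.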

How the data were processed

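Expression was deposited as log2 values of 24123 probe sets on 10 arrays, a unit taken from the range of the values. The array medians, 6.96 to 7.03, lay close together. The submitters' processing notes name R 2.15.2; how background was corrected and arrays were normalized is not given in the sources used here. Tests did not include the 124 control probe sets. Of the rest, 10069 carry 1 gene symbol, 198 several and 13732 none.

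Group means were fitted to all 10 arrays with limma 3.58.1 under R 4.3.3 (lmFit and eBayes, 7 residual and 3.57 prior degrees of freedom), two-sided, with Benjamini-Hochberg adjustment over 23999 probe sets. Means of marker lists and within-array differences were compared by exact two-sided permutation. The p-values of marker lists and control probe sets were not adjusted. For adult against juvenile RFH the smallest possible permutation p was 0.0286. In simulated data the fit recovered 90% of changes of 1 on the log2 scale for adult against juvenile RFH. It recovered 84% for juvenile RFH against WT. The simulation drew independent normal noise with 1 SD per probe set, equal in the 3 groups, for probe sets picked at random. The median SD over adult arrays was 0.50 in the 7 genes and 0.20 over all genes. The recovery therefore does not describe the 7 genes. For arrays their number limits the precision. The members, lists and naming rule were chosen with earlier results of these data known. Named were all members, all measured collagens and linkers of the lists, up to 4 called genes per direction of the other lists, and the 3 genes closest in pattern to each of COL4A2, COL15A1, COL8A1 and NID2; marker genes were named after their values were seen.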

Additional observations from a re-analysis of the deposited data

Results flagged for a closer look

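In the adult group of 4 arrays, 1 array stood far from the other three in 6 of 81 sets of values tested, and chance flags about 1 in 20. None of the 14 probe sets of the basement membrane genes was among them. Adult replicate 2 was apart in EGFL6, at 5.50 against 5.97 to 6.05, in ITGA6, at 3.52 against 3.29 to 3.32, and in the Schwann and neural marker list, at 8.19 against 8.44 to 8.45. Adult replicate 3 was apart in DMD, at 6.94 against 6.59 to 6.63, and in PLAT, at 12.44 against 13.08 to 13.16. Adult replicate 1 was apart in ADAMTS1, at 12.39 against 13.49 to 13.55.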

How the results depend on the processing

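COL4A2 and NID2 fell from juvenile to adult RFH under all 21 alternatives (adjusted p up to 0.0112 and 0.00685). The count of 5 members called was 3 with only the 2 groups compared in the fit and 3 to 6 over fits without 1 array; the count of 4025 probe sets was 2308, and 1425 with 1 probe set per gene (fewer tests), and 2243 to 4965 without 1 array. For juvenile RFH against WT members called stayed at 0, while the 28 probe sets became 6 without dim probe sets, 872 with 2 groups, 1171 with array weights, 10 with a floor of 4, 12 with 1 probe set per gene and 2 to 71 without 1 array; apart from fewer tests or samples, the cause was not tested. Signs turned in values near 0. COL8A1 in adult against juvenile RFH ran from -0.36 to 0.0026 without 1 array. In juvenile RFH against WT, LAMB1 was 0.0036 with arrays centred on medians and ran from -0.0518 to 0.0590 without 1 array, LAMB2 from -0.18 to 0.00026 and LAMC1 from -0.0934 to 0.0510, and LAMC1 was 0.0115 with the mean of its probe sets. The replicate numbers only name samples: same-numbered arrays of different groups had correlations of deviations from -0.16 to 0.18, 2 of 9 above 0.1. With the replicate block 6 members and 3922 probe sets were called in adult against juvenile RFH, LAMB2 passed, and 17 probe sets and 0 members were called in juvenile RFH against WT. The table gives no background level, so which dim probe sets lie within background is not known.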
